A study of Caenorhabditis elegans with 2 samples.

Results

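The glutathione transferases (GSTs), the UDP-glycosyltransferases (UGTs) and the cytochrome P450s are the 3 large families of detoxifying enzymes of the nematode Caenorhabditis elegans. Protein-coding genes were taken by name from the Ensembl release 115 annotation of the genome WBcel235, which is the build ce11: gst- or gsto- plus a number for GSTs, ugt- plus a number for UGTs and cyp- plus a number for P450s. This gave 188 of the 19973 protein-coding genes on the nuclear chromosomes, with 47 GST genes, 67 UGT genes and 74 P450 genes. RefSeq product names gave the family of 45 of the 47 GST genes, all 67 UGT genes and all 74 P450 genes. The other GST names were gst-42, a putative maleylacetoacetate isomerase, and gst-43, which RefSeq calls the same kind of enzyme.

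Chromatin immunoprecipitation followed by sequencing (ChIP-seq) was made for ELT-3, a zinc finger transcription factor of the GATA type, tagged with eGFP. Both libraries came from strain OP75, which carries the mutation unc-119(ed3) on chromosome III and the transgene insertion wgIs75, as whole embryos of mixed stage with male and female animals pooled. They were 2 biological replicates of 1 group, so no genotype, treatment or age was compared, and the labels do not state which promoter drives the tagged protein. A control is named in the labels, and its data were not analysed here.

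P450 enzymes oxidise lipids, hormones and foreign compounds. GSTs then couple such products to glutathione and UGTs couple them to sugars, after which efflux pumps carry the conjugates out of the cell. In worms the intestine and the hypodermis both express members of these families, and many members lie in tandem clusters of close copies. ELT-3 is known as a factor of the hypodermis, and GATA factors bind the sequence WGATAR, where W is A or T and R is A or G.

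Each gene was scored by the summits, the highest points of called regions, that lay from 1000 bp upstream to 500 bp downstream of its 5′ end. The 4 deposited lists that were read differ greatly in length. The reproducible list, which passed the authors' threshold on the irreproducible discovery rate, held 637 regions. The list called on both replicates pooled held 12702 regions, that of replicate 1 held 19168 and that of replicate 2 held 26381. The reproducible regions were exactly the 637 of highest signal in the pooled list, and 23 of them were mitochondrial. The signal is the authors' score of a region, with no stated scale, so signals were compared only within a list, ranks of lists of different length are given side by side without reading a change from them, and rank 1 is the highest signal of its list. Per the deposited file listings the 3 longer lists hold peaks together with background regions, so a summit in them need not belong to a peak that passed the authors' threshold. Read depth is unknown from lists of regions. Shares of genes carry exact binomial (Clopper-Pearson) 95% intervals, which cover counting error only, and genes of 1 tandem cluster share much of their sequence and position.

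Few of these enzyme genes were at reproducible sites. The reproducible list had a summit at 0 of 47 GST genes, 2 of 67 UGT genes and 0 of 74 P450 genes, against 1.79% of all protein-coding genes. The UGT genes were ugt-26 and ugt-19, 2.99% of the family with an interval from 0.364 to 10.4%. The upper limit of the interval was 7.55% for GSTs and 4.86% for P450s, so the background share lay within the interval of each family. At this number of genes a share below the background was not detectable.

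The longer lists held many more summits at these genes, at shares mostly close to the background. In the pooled list 15 GST genes (31.9%, interval 19.1 to 47.1%), 22 UGT genes (32.8%, 21.8 to 45.4%) and 16 P450 genes (21.6%, 12.9 to 32.7%) had a summit, against 25.4% of all genes. Since 42 UGT and 41 P450 genes lie on chromosome V, where fewer genes had summits, the background was also weighted to the chromosomes of each family. It was then 23.8% for GSTs, 21.5% for UGTs and 21.6% for P450s. The P450 share equalled its weighted background, and the UGT interval began just above its own. With the same number of highest regions taken from 1 replicate alone, the UGT count was 21 genes in replicate 1 and 13 in replicate 2. The share of all genes under this setting is not given, so a move against the background cannot be read from these counts.

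The replicate lists gave different orders of the families. In the list of replicate 1, 19 GST genes (40.4%), 30 UGT genes (44.8%, interval 32.6 to 57.4%) and 26 P450 genes (35.1%) had a summit, against 33.6% of all genes. In the list of replicate 2 the GST count was 30 genes (63.8%, interval 48.5 to 77.3%) against 41.8% of all genes, and 23 UGT genes (34.3%) and 24 P450 genes (32.4%) had one. GSTs were therefore the family with the highest share in replicate 2 and UGTs the family with the highest share in replicate 1. No test of this difference between replicates was run.

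A summit in both replicate lists was found at 17 GST genes (36.2%, interval 22.7 to 51.5%), 16 UGT genes (23.9%, 14.3 to 35.9%) and 10 P450 genes (13.5%, 6.68 to 23.5%), against 21.1% of all genes. The interval of the GSTs lay above that background and those of the other families included it. A gene could meet this criterion through different sites in the 2 libraries. With a pooled summit matched within 100 bp in both replicate lists, 10 GST genes (21.3%, interval 10.7 to 35.7%), 8 UGT genes (11.9%, 5.3 to 22.2%) and 5 P450 genes (6.76%, 2.23 to 15.1%) were left, against 11.7% of all genes. All 3 intervals then included the background, and the order of the families was the same.

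**Figure D1:**
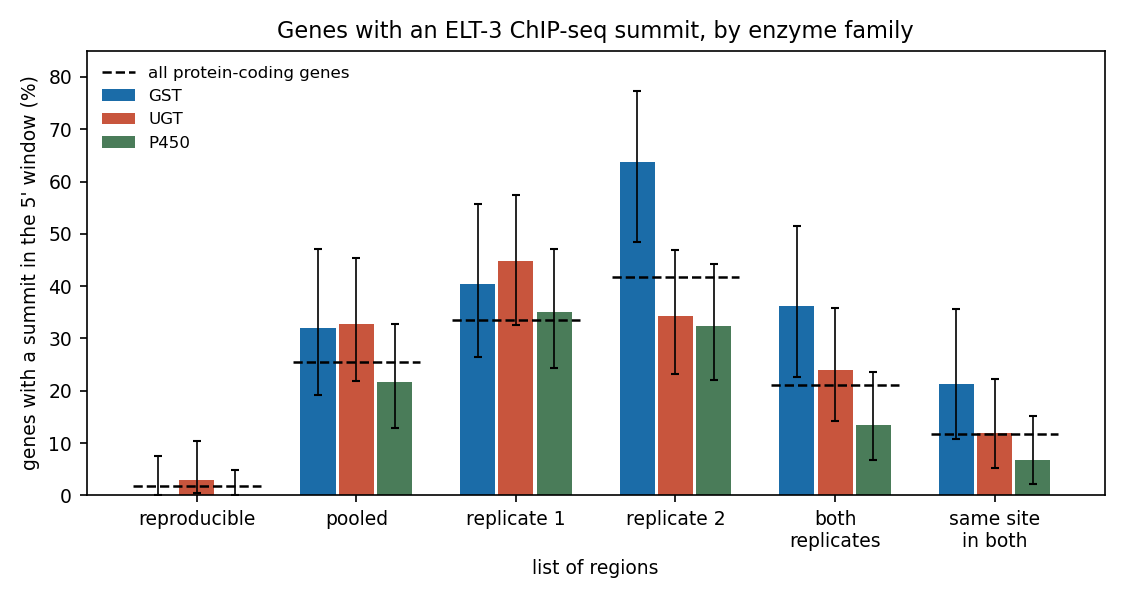
Share of genes (%) with an ELT-3 summit in the 5′ window, for GST, UGT and P450 genes in each list, in both replicate lists, and at the same site in the pooled list and both replicate lists. Bars are shares, error bars are exact binomial 95% intervals and dashed lines are the shares of all protein-coding genes; the GST bar at 63.8% in replicate 2 stands above its dashed line at 41.8%, and most other bars have a dashed line within their error bars.

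The replicates differed in which genes they held. Of the GST genes, 2 had a summit in the list of replicate 1 alone and 13 in that of replicate 2 alone, with 15 in neither. The split ran the other way for UGT genes, with 14 in replicate 1 alone, 7 in replicate 2 alone and 30 in neither. It was near even for P450 genes, with 16, 14 and 34. Of all protein-coding genes, 12.5% were in the list of replicate 1 alone, 20.7% in that of replicate 2 alone and 45.7% in neither. The shares in replicate 1 alone were 4.26% for GSTs, 20.9% for UGTs and 21.6% for P450s, and those in replicate 2 alone were 27.7%, 10.4% and 18.9%. They rest on few genes, and no test of their differences was run.

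The strongest sites of the pooled list were at GST and UGT genes and not at P450 genes, which the replicate lists did not repeat. The 10% of that list with the highest signal, a division chosen after the values were seen, had a summit at 4 GST genes (8.51%, interval 2.37 to 20.4%), 4 UGT genes (5.97%, 1.65 to 14.6%) and 0 P450 genes (upper limit 4.86%), against 3.76% of all genes. The highest P450 gene, cyp-29A4, had rank 1283 and so lay just below this division. The highest 10% of the replicate 1 list had a summit at 3 GST, 6 UGT and 3 P450 genes. These were 6.38%, 8.96% and 4.05%, against 5.02% of all genes. In replicate 2 it was 4, 5 and 5 genes (8.51%, 7.46% and 6.76%), against 7.52% of all genes. Among genes with a pooled summit the median rank was 5431 for GSTs, 4564 for UGTs and 8149 for P450s, and 5028 for all genes. For the highest 10% of the pooled list all 3 intervals included the background, so the families were not separable from it there.

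**Figure D2:**
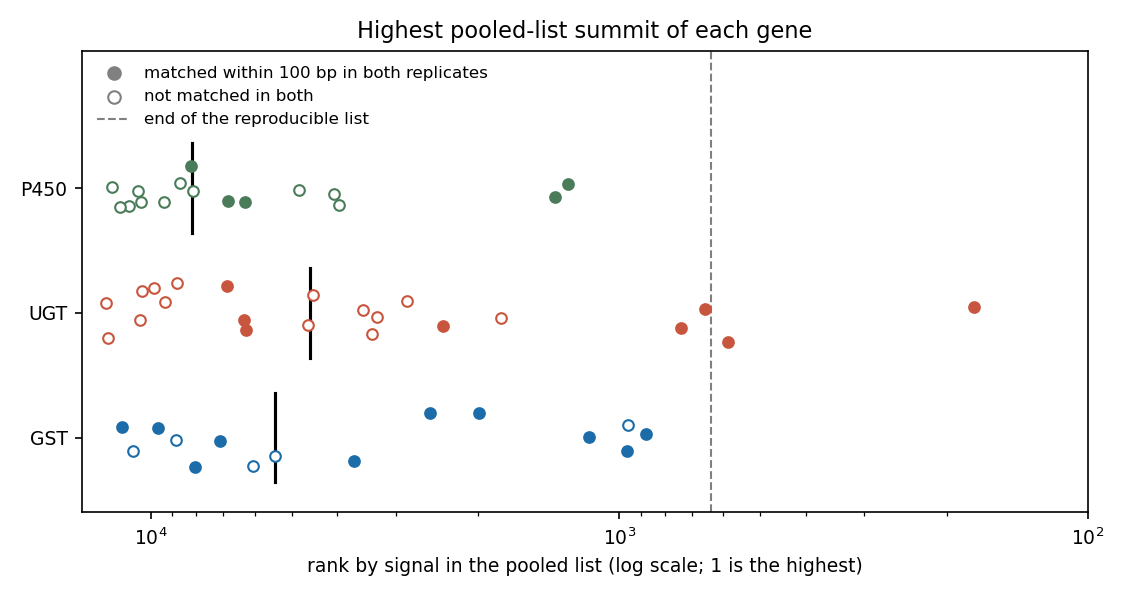
Rank of the highest pooled-list summit of each gene with one, by family, on a log axis on which rank 1 would be farthest right. Filled points are sites matched within 100 bp in both replicates, black bars are medians (5431, 4564 and 8149 for GST, UGT and P450) and the dashed line is the end of the reproducible list at rank 637; 2 UGT genes lie to its right, and the best GST and P450 genes lie at ranks 875 and 1283.

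In the pooled list the sites lay closer to gene starts than those of all genes, which the replicate lists did not repeat for P450s. The highest pooled summit lay a median of 118 bp from the 5′ end for GSTs, 234 bp for UGTs and 172 bp for P450s. The median was 274 bp for all genes. In replicate 1 the medians were 140, 164 and 332 bp for GSTs, UGTs and P450s, against 293 bp for all genes. In replicate 2 they were 262, 179 and 314 bp, against 308 bp. The highest pooled summit lay upstream in 13 of 15 GST genes, 16 of 22 UGT genes and 13 of 16 P450 genes. The window reaches 1000 bp upstream and only 500 bp downstream, so a majority upstream is expected from its shape alone. The 55 distinct pooled summits in these windows fell in intergenic sequence in 40 cases, in introns in 3, in coding exons in 5 and in untranslated exons in 7. For the upstream counts and this division no share over all genes is given, so neither is read as a trait of these families. A window of a further gene held the summit in 6 cases, beside 888 of the 4744 pooled summits in windows of all genes. The nearest 5′ end was sought only among genes whose window held the summit. It was that of an enzyme gene of these families for 53 of the 55. In all but those 6 cases the enzyme gene was the only gene compared, so this count is largely set by the method. The exceptions were gst-43, nearest to copa-1, and ugt-39, nearest to F10D2.10.

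**Figure D3:**
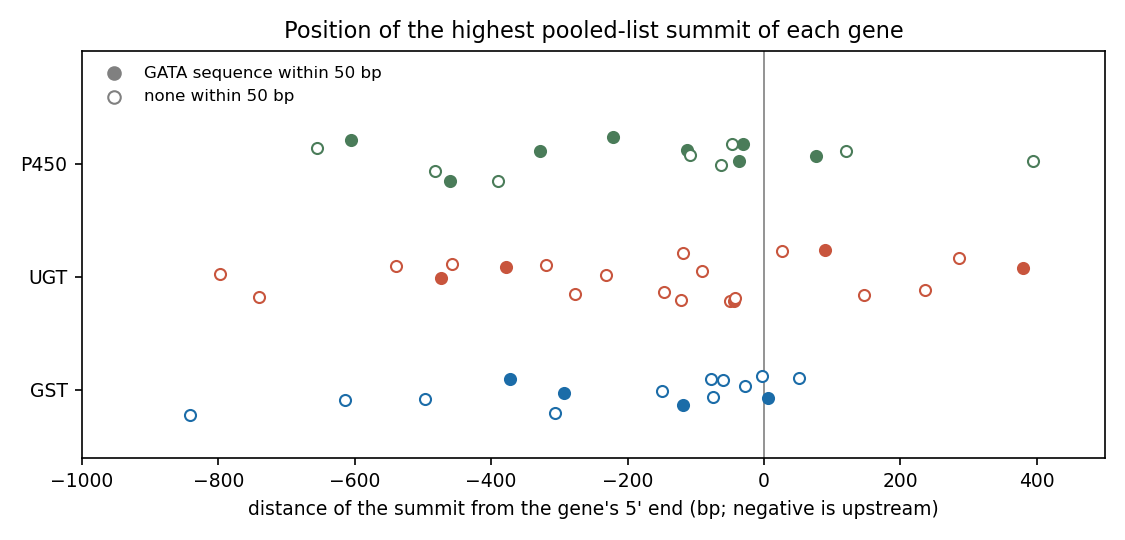
Distance of the highest pooled-list summit of each gene from its 5′ end (bp; negative is upstream), by family. Filled points have a GATA sequence (WGATAR) within 50 bp and open points have none. Of the 53 points 42 lie upstream of the start, in a window that reaches 1000 bp upstream and 500 bp downstream, and filled points are scattered over the window.

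Among GSTs the highest pooled summits lay at gst-27, gst-16, gst-42 and gst-12. At gst-27 the summit was 306 bp upstream with signal 36.9 and rank 875 in the pooled list. The same site had signal 21.6 and rank 1158 in replicate 1, and signal 14.99 and rank 1131 in replicate 2. Both libraries thus held the site. A small nucleolar RNA gene, Y53F4B.48, lay within 200 bp of this summit, and its part in the signal was not tested.

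The site of gst-16 was matched within 100 bp in replicate 1 only. Its pooled summit was 149 bp upstream with signal 35.5 and rank 957, and replicate 1 had it with signal 25.8 and rank 677. Replicate 2 had no summit within 100 bp of it, and its nearest in the window was 2 bp upstream of the start with signal 7.04 and rank 9172. The sequences at the gst-27 and gst-16 summits are shown because these are the 2 highest GST sites. Each runs 5′ to 3′ on the strand of the gene with the summit in the middle, from ce11, chrII:15165987-15166087 and chrII:13624539-13624639, both on the minus strand. Capitals would mark WGATAR, and neither sequence holds one.
gst-27: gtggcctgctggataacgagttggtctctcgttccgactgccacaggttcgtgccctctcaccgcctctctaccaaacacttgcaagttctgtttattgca
gst-16: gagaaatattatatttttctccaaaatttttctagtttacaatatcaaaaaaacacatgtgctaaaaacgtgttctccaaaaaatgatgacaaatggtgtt

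At gst-42 the summit lay 6 bp downstream of the 5′ end, in an untranslated exon on chromosome X, with signal 35.4 and rank 964 in the pooled list. It had signal 18.2 and rank 2049 in replicate 1, and signal 16.4 and rank 914 in replicate 2. It was the one GST summit of the highest 4 with WGATAR within 50 bp, where 2 copies lay, and the window of D1053.2 also held it. At gst-12 the summit was 52 bp downstream, also in an untranslated exon, with signal 33.1 and rank 1158 in the pooled list, 22.7 and rank 993 in replicate 1, and 12 and rank 2072 in replicate 2. In the window of gst-12, 78% of the 36-base words occurred once in the genome.

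The next GST genes were lower and were also found in both libraries. The summit of gst-5 was 3 bp upstream with signal 27.1 and rank 1991 in the pooled list, rank 2611 in replicate 1 and rank 3126 in replicate 2. That of gst-40 was 78 bp upstream with rank 2531 in the pooled list, rank 2864 in replicate 1 and rank 9359 in replicate 2. That of gst-43 was 372 bp upstream with rank 3689, and ranks 7418 and 3854 in replicates 1 and 2. All 3 sites had a summit within 100 bp in each library.

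The remaining GST genes with a summit in the pooled list and in both replicate lists had pooled ranks from 5431 to 11508. They were gst-36, gst-7, gst-34, gst-11, gst-35, gsto-1, which encodes an omega-class enzyme, and gst-20. For gst-36, gst-7 and gsto-1 the summit of replicate 2 was a different site from the pooled one. The pooled rank of gst-20 was the lowest of the family at 11508, although the same site had rank 2105 in replicate 1 and rank 3503 in replicate 2. Only gst-13 had its pooled summit, 615 bp upstream, with none in the window in the list of replicate 1, against rank 1963 in replicate 2. Conversely gst-8, gst-30 and gst-44 had summits in both replicate lists and none in the pooled list.

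The gene gst-4, whose promoter is widely used as a reporter of oxidative stress and of the factor SKN-1, had no summit in the reproducible list, the pooled list or the list of replicate 1. Replicate 2 had 1 summit in its window, 23 bp downstream of the start, with signal 5.88 and rank 14129. That summit also lay in the window of its neighbour gst-2, 187 bp upstream of the gst-2 start. The third gene of this cluster, gst-3, had a summit in replicate 2 alone, 609 bp upstream, with signal 6.18 and rank 12573. The window of gst-4 nevertheless held 6 copies of WGATAR, against a median of 3 for GST windows. A low summit in 1 of 2 libraries is all that these lists hold for gst-4.

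UGT genes held the highest sites of all 3 families. The 4 leading genes were ugt-26, ugt-19, ugt-50 and ugt-64, with pooled ranks 175, 586, 656 and 737. The first 2 were inside the reproducible list, whose lowest signal was 42. The next 2, with signals 41.6 and 39.7, were just outside it, so that the division between members and non-members of that list fell within a narrow range of signal. All 4 sites were matched within 100 bp in both replicates.

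At ugt-19 the summit was 146 bp upstream, in the intergenic region chrIV:6079908-6080287, with signal 43.5. Its signal was 23.9 with rank 843 in replicate 1, and 19.5 with rank 569 in replicate 2. Both libraries held a summit within 100 bp of it. At ugt-50, on chromosome X, the summit was 539 bp upstream with signal 31.0 and rank 387 in replicate 1, but the same site had signal 7.57 and rank 7567 in replicate 2. At ugt-64 the summit was 380 bp downstream, in an intron, with signal 23.01 and rank 962 in replicate 1, and 19.6 and rank 560 in replicate 2. In the window of ugt-64, 66% of the 36-base words were unique in the genome, the lowest value of the family. The sequences of these 3 sites are shown because they lie on either side of the end of the reproducible list and differ in their GATA content. They run 5′ to 3′ on the strand of the gene, from ce11, chrIV:6080048-6080148 on the minus strand, chrX:12690984-12691084 on the plus strand and chrV:3505922-3506022 on the minus strand, and capitals mark WGATAR or its reverse complement.
ugt-19: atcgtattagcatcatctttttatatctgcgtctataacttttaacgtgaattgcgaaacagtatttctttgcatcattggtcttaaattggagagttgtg
ugt-50: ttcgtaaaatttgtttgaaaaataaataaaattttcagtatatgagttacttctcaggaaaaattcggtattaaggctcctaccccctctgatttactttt
ugt-64: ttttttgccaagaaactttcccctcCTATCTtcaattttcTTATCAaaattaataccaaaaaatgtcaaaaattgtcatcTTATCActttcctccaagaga

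Neither ugt-19 nor ugt-50 held WGATAR within 50 bp of its summit, and ugt-64 held 3 copies in its intron. A reproducible site and one just below it thus lacked the sequence, while the weaker ugt-64 site had it on both sides of the summit. No match says only that these letters are not in this window.

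The highest site of all 188 genes was at ugt-26, the first gene of a cluster with ugt-27, ugt-28 and ugt-25. Its region spanned chrI:4721031-4721410, with the summit 90 bp downstream of the 5′ end in a coding exon. The signal was 68.0 in the pooled list, 42.1 with rank 153 in replicate 1, and 24.5 with rank 304 in replicate 2. Within 50 bp of it there were 2 copies of WGATAR.

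The same cluster held a second reproducible region that the scoring window missed. It lay at chrI:4731925-4732304 in an intron of ugt-25, with the summit 509 bp downstream of the 5′ end. Its signal was 46.6 with rank 475 in the pooled list, 32.0 with rank 352 in replicate 1, and 13.7 with rank 1397 in replicate 2. There were 3 copies of WGATAR within 50 bp, and all were TGATAA. This site was singled out after its values were seen.

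Within its window ugt-25 had a lower pooled summit, 122 bp upstream, with signal 20.1 and rank 4618. Replicate 1 held it with rank 1743, and replicate 2 had none within 100 bp. At ugt-28 the pooled summit was 50 bp upstream with signal 22.7 and rank 3290, and here it was replicate 2 that held it, with signal 18.3 and rank 684, while replicate 1 had none in the window. No pooled summit lay in the window of ugt-27. A further pooled summit lay inside the body of ugt-28, outside the scoring windows of the cluster, with rank 2578, and both libraries held it, at ranks 4544 and 6927. The 2 reproducible sites and this one were thus matched in both libraries, and the summits just upstream of ugt-25 and ugt-28 each in 1.

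**Figure D4:**
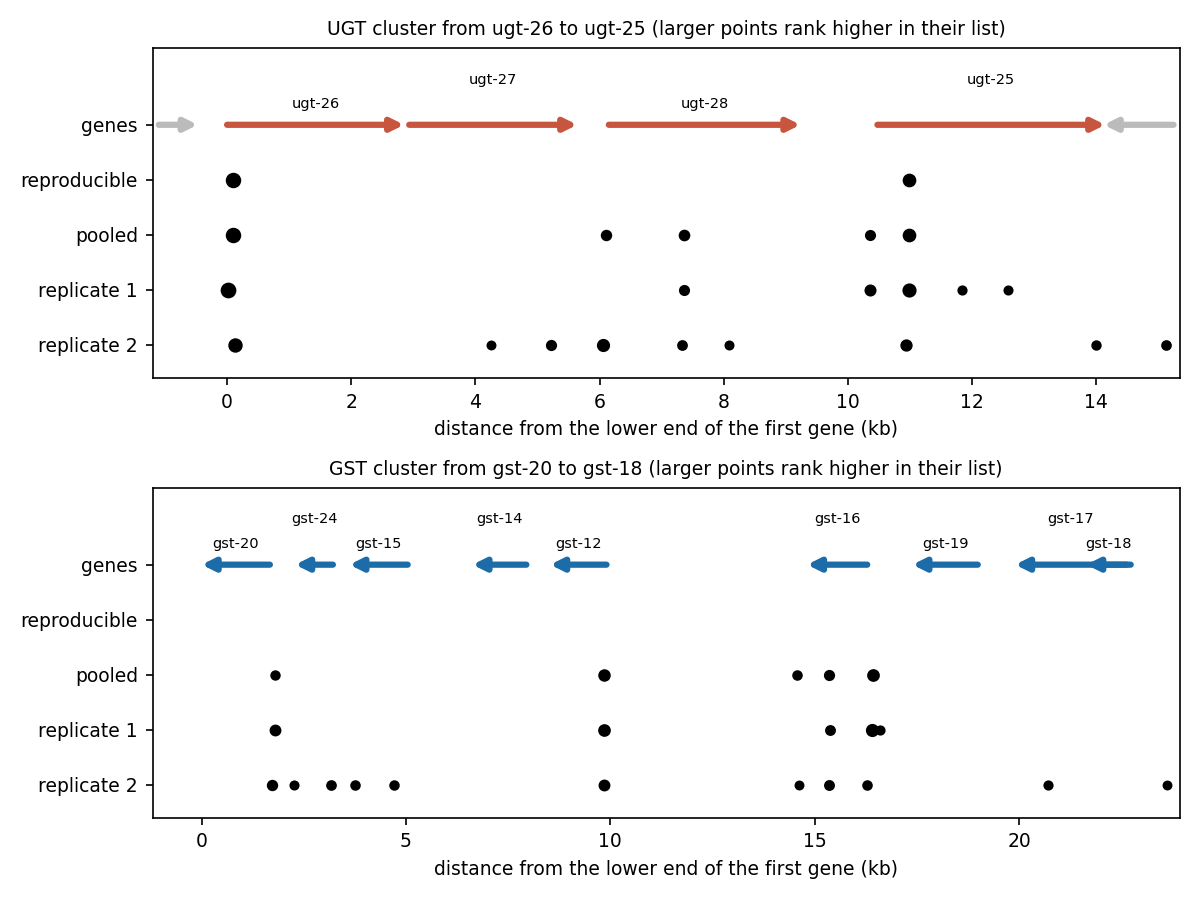
Summits along the cluster from ugt-26 to ugt-25 and along the cluster from gst-20 to gst-18, by list, against distance from the lower end of the first gene (kb). Arrows are genes with their direction (grey for neighbours of other families) and larger points have a higher rank in their own list; the UGT cluster has 2 summits in the reproducible row and the GST cluster has none, with most of its summits in the replicate 2 row.

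Among the other UGT genes the next highest were ugt-66, ugt-58, ugt-20 and ugt-3. The summit of ugt-66 was 457 bp upstream with signal 28.2 and rank 1789, with rank 2412 at that site in replicate 1 and none within 100 bp in replicate 2, whose summit in the window was 345 bp upstream with rank 5848. The highest summit of ugt-58 was 474 bp upstream with signal 25.5 and rank 2374, and was matched in both libraries at ranks 5579 and 3175. It held 2 copies of WGATAR. The summit of ugt-20, next to ugt-19, was 91 bp upstream with signal 23.9 and rank 2835, and neither library had a summit within 100 bp of it, although both had other summits in its window. That of ugt-3 was 44 bp upstream with signal 22.4 and rank 3363, and was in replicate 1 alone, at rank 1225. Of these 4 sites only that of ugt-58 had a summit within 100 bp in both libraries, and that of ugt-66 missed this distance narrowly in replicate 2.

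Further UGT genes in the pooled list and both replicate lists were ugt-13, ugt-39, ugt-31, ugt-23, ugt-46 and ugt-52, with pooled ranks from 3514 to 10508. The same site was found in both libraries for ugt-31, ugt-23 and ugt-46, at ranks between 8114 and 18095. Conversely ugt-7 and ugt-49 had summits in both replicate lists and none in the pooled list. The 8 UGT genes with a site matched in both libraries were thus the 4 leading genes and ugt-58, ugt-31, ugt-23 and ugt-46.

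P450 genes had lower sites in the pooled list, with a median rank of 8149 among genes with a summit. The same held in the list of replicate 1 but not in that of replicate 2. In replicate 1 their median rank was 10020, against 6128 for GSTs, 9392 for UGTs and 7825 for all genes. In replicate 2 it was 7852, against 8644 for GSTs, 10480 for UGTs and 9965 for all genes. In the pooled list the leading genes cyp-29A4 and cyp-14A5 were the only ones with a pooled rank under 3955. At cyp-29A4 the summit was 329 bp upstream with signal 31.8 and rank 1283, and its signal was 20.04 with rank 1487 in replicate 1 and 12.5 with rank 1810 in replicate 2. At cyp-14A5 the summit was 63 bp upstream with signal 30.9 and rank 1372, and its signal was 18.7 with rank 1863 in replicate 1 and 14.4 with rank 1236 in replicate 2. Both libraries held both sites in the upper part of their lists.

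The third gene, cyp-34A8, had a summit in the list of 1 library only. Its pooled summit was 30 bp upstream with signal 21.2 and rank 3955, replicate 1 had it with signal 16.02 and rank 3117, and replicate 2 had no summit in its window. The sequences at the 3 leading P450 summits are shown because they differ in their GATA content. They are from ce11, chrV:9654376-9654476 on the plus strand, chrV:5423295-5423395 on the minus strand and chrV:3967803-3967903 on the minus strand, each 5′ to 3′ on the strand of the gene, with WGATAR or its reverse complement in capitals.
cyp-29A4: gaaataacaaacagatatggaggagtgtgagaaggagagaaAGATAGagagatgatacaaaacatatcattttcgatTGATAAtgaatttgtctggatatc
cyp-14A5: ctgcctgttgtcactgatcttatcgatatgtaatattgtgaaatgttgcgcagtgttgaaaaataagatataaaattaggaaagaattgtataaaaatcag
cyp-34A8: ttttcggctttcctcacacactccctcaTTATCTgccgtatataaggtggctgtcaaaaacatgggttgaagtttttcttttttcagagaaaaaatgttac

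The cyp-29A4 site held AGATAG just before its summit and TGATAA 27 bases after it, and the cyp-34A8 site held 1 copy, on the other strand, 22 bases before it. The cyp-14A5 site held none within 50 bp. The higher 2 P450 sites, which both libraries repeated, thus did not share this feature.

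Of the other P450 genes among the highest 8, cyp-13A8 and cyp-43A1 were in replicate 2 alone. Their pooled ranks were 4051 and 4821, and their ranks in replicate 2 were 1819 and 1267. The pooled summit of cyp-35A1, a member of the cyp-35A group that foreign compounds induce, was 606 bp upstream with rank 6301, and lay in an untranslated exon of its neighbour cyp-35A2. It was matched at ranks 12784 and 13582. The summit of cyp-13A2 was 76 bp downstream with rank 6825, and was matched at ranks 10243 and 2311. That of cyp-36A1 was 482 bp upstream with rank 8112, and was matched in replicate 1 alone, at rank 4935.

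Further P450 genes, cyp-33E1, cyp-14A4 and cyp-33C6, had summits in the pooled list and in both replicate lists. The site of cyp-33E1, 395 bp downstream in an intron with pooled rank 8186, was the fifth P450 site matched in both libraries. A tRNA gene lay within 200 bp of the cyp-14A4 summit, which had pooled rank 10638, and its part in the signal was not tested. The pooled summit of cyp-33C6, at rank 11643, was matched in neither library. In cyp-33B1 and cyp-34A1 both replicate lists had a summit and the pooled list had none.

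Agreement of the libraries on single sites followed the same order of families. It rests on the same matched sites as the gene counts above, so the order is not a separate result. Of the 16 pooled summits in GST windows, 10 were matched within 100 bp in both replicates, 5 in replicate 1 alone, 1 in replicate 2 alone and 0 in neither. Of the 23 in UGT windows the numbers were 9, 8, 2 and 4, and of the 16 in P450 windows they were 5, 5, 5 and 1. Of the 4744 pooled summits in windows of all genes, 41.2% were matched in both. The matched share was 62.5% for GSTs, 39.1% for UGTs and 31.2% for P450s, and with 16 to 23 sites per family these shares carry wide counting error.

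At sites matched in both libraries the ranks ran together. Spearman's rho between the ranks in replicates 1 and 2 was 0.88 over the 10 GST sites, 0.75 over the 9 UGT sites and 0.79 over all 24 sites, against 0.48 over the 1955 such sites of all genes. These values describe sites of the same 2 libraries, both from the same strain, and no test was made. The site of ugt-50 was the farthest from the common order, at ranks 387 and 7567.

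**Figure D5:**
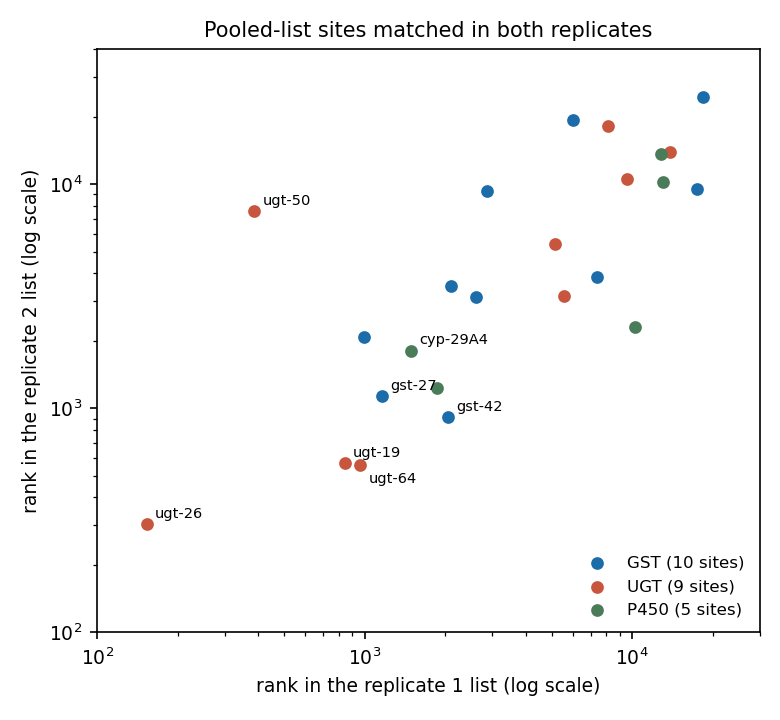
Ranks in the lists of replicates 1 and 2 (both log axes, low ranks are high signals) of the 24 pooled-list sites at GST, UGT and P450 genes that both libraries matched within 100 bp. The site of ugt-26 has the lowest pair of ranks, 153 and 304, and that of ugt-50 stands apart at ranks 387 and 7567.

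GATA sequences were common in the windows of all 3 families. The motif was searched on both strands as AGATAA or TGATAA, with G allowed in place of the last A, and TGATAA was also counted apart as 1 of these forms. WGATAR occurred in 46 of 47 GST windows, all 67 UGT windows and all 74 P450 windows, and in 96.1% of the windows of all genes. The median number of copies was 3 for GSTs, 5 for UGTs and 5 for P450s, and 4 for all genes. Of the 153, 364 and 353 copies in the 3 families, 5, 13 and 10 lay within 50 bp of a pooled summit, which is 3.27%, 3.57% and 2.83%, against 2.47% for all genes. Summits and the 50 bp around them cover a small part of the windows, so most copies lie elsewhere by construction.

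Seen from the summits, WGATAR lay within 50 bp of 4 of 16 GST summits (25%, interval 7.27 to 52.4%), 6 of 23 UGT summits (26.1%, 10.2 to 48.4%) and 8 of 16 P450 summits (50%, 24.7 to 75.3%). The share was 25.2% over the 4744 summits of all genes, which was within the GST and UGT intervals and near the lower end of the P450 interval. Within 100 bp the shares were 43.8%, 47.8% and 87.5%, against 41.5%, and here the P450 interval, 61.7 to 98.4%, lay above the background. The form TGATAA alone was within 50 bp of 12.5% of GST, 21.7% of UGT and 6.25% of P450 summits, against 12.4%. The P450 value is 1 of 16 summits, with an interval from 0.158 to 30.2% that includes the background. Within 100 bp the TGATAA shares were 12.5%, 34.8% and 25%, against 21.5%, so for P450s the direction of TGATAA against the background depended on the distance. Base composition also differed between the families. The median GC content of the 101 bases at the summits was 32.7% for P450s, 33.7% for UGTs and 38.1% for GSTs, against 36.6% for all genes. Its part in the motif counts was not tested.

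The P450 summits with WGATAR within 50 bp were those of cyp-29A4, cyp-34A8, cyp-13A8, cyp-35A1, cyp-13A2, cyp-32A1, cyp-13A3 and cyp-13A10. The genes cyp-13A2, cyp-13A3 and cyp-13A8 lie in 1 tandem cluster, so their sites are not independent examples of the motif. The GST genes were gst-42, gst-43, gst-35 and gst-20, with pooled ranks from 964 to 11508, so that the motif was not confined to high sites.

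Position in a tandem cluster, taken as a run of family members with gaps of at most 10 kb, was examined after the values were seen. There were 27 such clusters holding 106 genes, and 82 genes stood alone. A pooled summit was found at 25.5% of clustered and 31.7% of single genes, beside 25.4% of all protein-coding genes. A summit in both replicate lists was found at 17.9% and 29.3%, beside 21.1% of all genes. In both replicate lists the direction was the same in each family, with 32% against 40.9% for GSTs, 16.2% against 33.3% for UGTs and 11.4% against 16.7% for P450s. Other counts went the other way. In replicate 1, 18 of 44 clustered and 8 of 30 single P450 genes had a summit, beside 33.6% of all genes. Both UGT genes in the reproducible list were clustered. No test was run on this division.

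Among clusters of 8 or more genes the counts differed most in replicate 2. Of all protein-coding genes, 25.4% had a summit in the pooled list, 33.6% in replicate 1 and 41.8% in replicate 2. No test of the counts below was run. The cluster of 9 GST genes from gst-20 to gst-18 had pooled summits at 3 genes, replicate 1 summits at 3 and replicate 2 summits at 7. The other cluster of 9, from gst-26 to gst-35, had 3, 3 and 4. In the largest cluster, the 10 P450 genes from cyp-35A5 to cyp-34A10, the counts were 1, 2 and 1, and the 8 UGT genes from ugt-12 to ugt-13 had 2, 3 and 1. The 8 genes from cyp-13A1 to cyp-13A8 had 3, 2 and 4. Replicate 2 thus supplied most of the genes of the first GST cluster, and no other cluster of 8 or more genes had so high a share in any list.

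Close copies can lose reads that map to more than 1 place, so the uniqueness of each window was computed from the genome. The median share of 36-base words that occur once was 99.6% for GST, 100% for UGT and 100% for P450 windows. It was under 50% in gst-39, at 36.7%, gst-10, at 0%, and cyp-25A6, at 33.2%. No list had a summit in these windows, and an absence there cannot be read as a lack of binding. All other windows of these families were over 50% unique. The lowest of these, cyp-25A4 at 51.8% and cyp-25A3 at 53.6%, also had no summit in any list, and their absence is likewise uncertain.

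Genes that act with these enzymes were counted for comparison, in 6 groups by role with 69 genes in all. Reproducible sites were found at 3 of them, beside 1.79% of all protein-coding genes. The highest was at mrp-2, an ABC transporter of the family of conjugate export pumps, 821 bp upstream with signal 69.7 and rank 159, slightly above ugt-26. At nhr-49, a nuclear hormone receptor of lipid metabolism, the summit was 408 bp upstream with signal 52.6 and rank 342. At aha-1, which encodes the dimer partner of the aryl hydrocarbon receptor and of HIF-1, it was 430 bp upstream with signal 48.5 and rank 433.

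By role, pooled summits were found at 9 of 16 regulators, 4 of 22 efflux transporters, 5 of 21 peroxide and superoxide enzymes, 2 of 3 genes of glutathione synthesis and reduction, 2 of 3 redox partners of P450s and 2 of 4 other conjugating or P450 enzymes. This made 24 of 69 genes, beside 25.4% of all protein-coding genes. A summit in both replicate lists was found at 24 genes, beside 21.1%, and a site matched in both libraries at 15, of which 7 were regulators, beside 11.7%. Regulators held the most genes in the pooled, matched and reproducible counts, while peroxide and superoxide enzymes equalled them at 7 in both replicate lists and had 12 against 11 in replicate 2. The groups differ in size, from 3 to 22 genes, so these counts do not rank the roles by share. In the pooled list the share was higher for the 2 groups with 2 of 3 genes than for regulators. Only efflux transporters and regulators had genes in the reproducible list. The other groups, of 3 to 21 genes, had none. With 1.79% of all protein-coding genes in that list, a count of 0 in groups of this size sets no group apart.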

How the data were processed

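ELT-3 ChIP-seq regions on ce11 were read from lists the authors deposited: 1 per replicate and 1 for both replicates pooled, all described in the deposited file listings as peaks and background, and the list that passed their threshold on the irreproducible discovery rate. The signal of each region is the authors' deposited score. No source used here names the aligner, the peak caller or that threshold. The −log10 q-values and the lists on ce10 were not used.

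Summits were assigned to windows from 1000 bp upstream to 500 bp downstream of annotated 5′ ends (Ensembl release 115, 19973 genes). Every region ended within its reference chromosome. WGATAR was searched within 50 bp of summits, and libraries were matched within 100 bp. The window, motif and uniqueness code was tested on simulated data. Python 3.11.15, numpy 2.4.6, scipy 1.17.1 and matplotlib 3.10.9 were used.

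The members, lists of genes by role and alternatives were chosen with earlier results of these data known. Named genes were those in the reproducible list, the 8 of highest pooled signal per family, those in the pooled and both replicate lists, gst-4, and genes by role in the reproducible list. Others, named beside small counts or single values, were chosen after their values were seen, as were the tandem clusters. So were the highest 10% of the pooled and replicate lists, GC content, RefSeq products, the matched-site count and the wider reach of 5000 bp. No set test was run. There were 2 replicates of 1 group, so no p-value was computed.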

Additional observations from a re-analysis of the deposited data

How the results depend on the processing

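Of 87 alternative values, 71 kept their count within 1.5 times of the reported one or their share within its interval, and 16 moved. The cause was not tested. The 71 include the GST and P450 counts of 0 in the reproducible list, which stayed 0. Settings that only remove regions or shorten the window could not have changed those. With the upper 50% of each list by signal, the pooled counts were 9 GST, 14 UGT and 6 P450 genes, those in both replicate lists 10, 9 and 4, and the reproducible UGT count 1. With 1 site required in the pooled and both replicate lists, 10 GST, 8 UGT and 5 P450 genes were left. Counting gene bodies or 5000 bp around the start gave 6 UGT genes at reproducible sites, which are 3 sites each near 2 genes. P450 genes in both replicate lists numbered 6 with a window from 500 bp upstream and 18 with one from 2000 bp. The P450 share with a GATA sequence was 6.25% for TGATAA and 87.5% within 100 bp. Taking as many top regions from 1 replicate alone as the list held gave 15 to 20 GST, 13 to 21 UGT and 16 to 17 P450 genes in place of the pooled counts, and 2 to 3 UGT genes and 0 GST or P450 genes in place of the reproducible ones. The UGT count of 13 was without replicate 1. Apart from the same-site count (11.7% of all genes), these gene counts are given without the share of all genes under the same setting. Whether they moved against the background or only with the length of list or window cannot be read from them. No paired analysis was possible because there was 1 group. Depth is unknown, and with 47 to 74 genes per family only large differences from the background share could be seen.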
